A study of Brassica napus with 8 samples.

Results

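The 178 probes described here were induced in wild-type seedlings of *Brassica napus* after feeding by larvae of the cabbage moth *Mamestra brassicae*, and in *MINELESS* seedlings they had values on replicas 1 and 4 only. They were selected on 2 kinds of measured data. The first was the pattern of values, at least 3 of the 4 wild-type arrays and exactly replicas 1 and 4 of *MINELESS*. The second was a plain wild-type mean log2 ratio of 0.7 or higher with every wild-type value above 0. Of the 34992 probes on the array, 8409 had any value, 2699 had the *MINELESS* pattern, and 1945 of these had at least 3 wild-type values. The wild-type part of the rule alone was passed by 513 probes, of which 178 are the ones described here, 153 had values on at least 3 *MINELESS* arrays and 182 had none.

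Each of the 8 dual-colour arrays compared RNA of challenged seedlings with RNA of control seedlings of the same genotype, and each genotype had 4 biological replicas. *MINELESS* is a *B. napus* line in which the myrosin cells of the seeds were removed by genetic modification, and the unmodified cultivar Westar served as wild-type. Seedlings were 6-7 days old, larvae were 10 days old and had been reared on the genotype they were tested on, and feeding lasted 24 h. A challenged replica pooled 6 pots and a control replica 4 pots of 4 seedlings each, and controls were caged without larvae. Challenged RNA carried Cy5 in replicas 1 and 2 and Cy3 in replicas 3 and 4, so the *MINELESS* arrays with values for these probes had opposite dyes. For *MINELESS* replicas 3 and 4 the treatment label of 1 channel goes against that channel's name, and the names were followed. All pairs of arrays of opposite dye correlated positively over shared probes (r from 0.561 to 0.785), so the deposited ratios had been turned one way. A positive log2 ratio is likely a higher level in challenged seedlings, which is the comparison that the design names. In whole above-ground tissue, fewer cells of a type and less RNA per cell cannot be told apart.

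Plants of the Brassicaceae store glucosinolates, and the enzyme myrosinase, which is kept in the myrosin cells, breaks them down into toxic products when tissue is chewed. Chewing also raises jasmonic acid, a hormone made from membrane fatty acids, which removes the JAZ repressors and so releases MYC transcription factors. Genes of jasmonic acid synthesis, of tryptophan synthesis and of indole glucosinolate synthesis are known targets of that pathway in *Arabidopsis*. The array carried oligonucleotides of *Arabidopsis*, and the tables used here do not pair its probes with genes or sequences. The values therefore belong to probes, and no probe can be assigned to these pathways.

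Larval feeding was followed by higher levels on most of these probes in *MINELESS* seedlings also, although *MINELESS* values had no part in the size that the rule required. The median of the mean log2 ratio over replicas 1 and 4 was 1.00, a 2.00-fold level. On replica 1 the 178 values ran between -0.62 and 3.75 with a median of 0.86, and on replica 4 between -0.24 and 3.76 with a median of 1.02. Both values were above 0 on 170 probes (95.5%), which was the case for 34.7% of the 3621 probes that had both *MINELESS* values and at least 3 wild-type values. Of the 178, 4 (2.25%) had both below 0, against 29.7% of the 3621, and 4 had 1 on each side of 0. Another 144 probes passed the same wild-type part of the rule and had values on at least 3 *MINELESS* arrays, replicas 1 and 4 included. Of those 144 probes, 97.9% had both values above 0 and 0 had both below 0.

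The wild-type values, which chose the probes, are given as a description. Their medians on wild-type replicas 1 to 3 were 1.31 (n = 177 probes), 1.25 (n = 178) and 1.17 (n = 171). On wild-type replica 4 the median was 1.57 (n = 135). Before any scaling of the arrays to a common spread, these medians were all above both *MINELESS* medians. The wild-type values ran from 0.01 to 4.31. Replica 4 was the array without a value on 43 of the 51 probes with 3 wild-type values, and it gave the highest of the 4 values on 66 of the 127 probes with all 4. The median wild-type mean was 1.24, a 2.36-fold level.

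The *MINELESS* response was tested with limma over all 3749 probes with at least 3 wild-type and at least 2 *MINELESS* values, with a coefficient for each genotype and a dye effect. A probe was called where its adjusted *P* was under 0.05 and its log2 ratio passed 0.5 in either direction. By these limits 116 of the 178 probes (65.2%) rose in *MINELESS* seedlings and 0 fell, and 0 had a negative ratio at an unadjusted *P* under 0.05. Over all probes tested, 7.28% were called as higher and 1.73% as lower (limma, Benjamini-Hochberg adjustment). Of the 1767 probes with the same pattern of values that did not pass the wild-type part of the rule, 14 (0.792%) were called as higher. The 116 probes had *MINELESS* means between 0.67 and 3.76 with a median of 1.28, and both values were above 0 on all 116. The standard error of the *MINELESS* estimate ran from 0.16 to 0.67 with a median of 0.20.

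The spread in this fit came in part from the wild-type arrays whose values chose the probes. With *MINELESS* replicas 1 and 4 fitted alone, 145 of the 178 were called as higher against 9.73% of 4603 probes, and the *P* values then rested on the variance pooled over all probes. The count needed both arrays: without *MINELESS* replica 1 it was 50 (3.92% of all probes tested) and without *MINELESS* replica 4 it was 36 (3.47%).

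The other 62 probes did not pass. Their median *MINELESS* mean was 0.50, and 38 of them had an unadjusted *P* under 0.05 in limma. Most of them, 40, had a wild-type mean under 1. The highest *MINELESS* mean without a call belonged to Narc8_11029, a probe singled out after its values were seen. Its log2 ratios were 1.87 and 2.56 on *MINELESS* replicas 1 and 4, against 4.31, 0.78 and 0.80 on wild-type replicas 1 to 3. The *MINELESS* values lay inside the range of the wild-type ones, where 1 array stood far above the others, and the *MINELESS* estimate was 2.21 ± 0.67 (standard error), which limma placed at an adjusted *P* of 0.0803.

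The probe with the highest *MINELESS* response was Narc8_18416. Its log2 ratios were 3.75 and 3.76 on *MINELESS* replicas 1 and 4, against 4.01, 3.25, 2.61 and 4.01 on wild-type replicas 1 to 4. The *MINELESS* arrays were nearly equal and lay within the wild-type range, and the *MINELESS* mean of 3.76 corresponds to a 13.5-fold level (standard error 0.29, adjusted *P* 1.83e-05, limma).

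Narc8_22711 followed with 3.29 and 2.89 in *MINELESS*, against 3.37, 2.83, 2.51 and 2.31 in wild-type. Narc8_12608 had 3.09 and 2.98 in *MINELESS*, against 2.95, 2.82, 2.78 and 3.30 in wild-type. On both probes the genotypes overlapped and the *MINELESS* mean (3.09 and 3.04) was above the wild-type mean (2.75 and 2.96), with an adjusted *P* of 3.35e-06 for the *MINELESS* response of each (limma).

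Narc8_04029 had 2.97 and 2.75 in *MINELESS*, against 3.23, 3.33, 2.71 and 3.62 in wild-type. Narc8_25588 had 2.44 and 2.87 in *MINELESS*, against 3.00, 3.13, 2.17 and 3.28 in wild-type. These overlapped as well, and their *MINELESS* means of 2.86 and 2.65 passed with an adjusted *P* of 1.16e-05 and 6.69e-05 (limma).

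Other strongly responding probes had *MINELESS* values that lay apart from the wild-type ones. Narc8_30650, which had the highest wild-type mean, gave 2.75 and 2.92 in *MINELESS*, against 3.43, 3.68, 3.48 and 3.76 in wild-type. Narc8_24159 gave 2.73 and 2.59 in *MINELESS*, against 3.39, 3.40, 3.18 and 3.02 in wild-type. On these 2 probes both *MINELESS* values were below every wild-type value, by a difference of means of -0.76 and -0.59, while the rise in *MINELESS* itself had an adjusted *P* of 3.35e-06 on each (limma).

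Narc8_18874 went the other way, with 2.59 and 2.69 in *MINELESS*, against 2.15, 2.14, 2.50 and 2.28 in wild-type. It was 1 of only 2 probes among the 178 with both *MINELESS* values above every wild-type value. The other, Narc8_17845, had 1.89 and 1.86 in *MINELESS*, against 1.18, 1.24, 1.56 and 0.83 in wild-type. The *MINELESS* means of 2.64 and 1.87 had an adjusted *P* of 3.62e-06 and 0.000106 (limma).

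A further 3 probes of the strong group had *MINELESS* arrays that differed by more than 1 on the log2 scale. Narc8_20309 had 2.18 and 3.36 on *MINELESS* replicas 1 and 4, against 2.79, 3.40, 3.57 and 3.81 in wild-type. Narc8_26375 had 1.89 and 3.43 in *MINELESS*, against 3.03, 3.47, 2.92 and 3.69 in wild-type. On both, replica 1 was below and replica 4 within the wild-type range, and the means of 2.77 and 2.66 passed with an adjusted *P* of 1.06e-05 and 0.000129 (limma).

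Narc8_21643 had 0.96 and 2.59 in *MINELESS*, against 3.43, 3.52, 4.08 and 2.74 in wild-type. Every *MINELESS* value was below every wild-type value, and the difference of means, *MINELESS* minus wild-type, was -1.67, the largest of the 178. Its *MINELESS* mean of 1.78 still passed the test of the response (standard error 0.34, adjusted *P* 0.00657, limma), but without *MINELESS* replica 4 the estimate was 0.93 and the call was lost (adjusted *P* 0.407, limma).

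At the other end, 4 probes had both *MINELESS* values below 0. Narc8_24200 had -0.62 and -0.08 in *MINELESS*, against 0.61, 0.76, 1.26 and 0.34 in wild-type. Narc8_34318 had -0.27 and -0.13 in *MINELESS*, against 0.25, 0.86, 2.23 and 0.20 in wild-type. On both probes, wild-type replica 3 was the highest wild-type array, and without it the wild-type mean would fall below the 0.7 of the rule. The *MINELESS* means of -0.35 and -0.20 were not past the test, with an adjusted *P* of 0.407 and 0.825 (limma).

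Narc8_23833 had -0.11 and -0.24 in *MINELESS*, against 0.90, 0.61, 0.81 and 1.49 in wild-type. Narc8_27952 had -0.25 and -0.09 in *MINELESS*, against 0.49, 0.28, 0.25 and 2.39 in wild-type. Their means in *MINELESS* were -0.17 and -0.17, again not past the test (adjusted *P* 0.70 and 0.857, limma), and on Narc8_27952 wild-type replica 4 alone brought the wild-type mean to 0.85. The next probe, Narc8_00232, had 0.16 and -0.17 in *MINELESS*, against 1.08, 0.65, 0.59 and 0.89 in wild-type. Its *MINELESS* arrays lay on either side of 0, with an adjusted *P* of 0.994 (limma). All 5 had a wild-type mean under 1.

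At the threshold of the rule, the 3 probes just inside, Narc8_23902, Narc8_04826 and Narc8_08000, had *MINELESS* means of 0.57, 0.44 and 0.42, and wild-type means of 0.70, 0.70 and 0.71. The 3 just outside, Narc8_06677, Narc8_07733 and Narc8_14731, had *MINELESS* means of 0.61, 0.68 and -0.15, and wild-type means of 0.697, 0.697 and 0.691, short of the 0.7 required.

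The *MINELESS* response grew with the wild-type response that chose the probe. Across the 178 probes the means of the genotypes correlated at 0.85 (Pearson) and 0.80 (Spearman), where probes of the same arrays are not independent. The correlations were 0.82 and 0.77 over the 144 probes of the same wild-type rule with values on at least 3 *MINELESS* arrays. They were 0.83 and 0.60 over the 3621 probes with both *MINELESS* values and at least 3 wild-type values. Of the 178, the 56 probes with a wild-type mean under 1 had a median *MINELESS* mean of 0.50, and 16 of them (28.6%) were called as higher. The 60 probes with a wild-type mean from 1 to below 1.5 had a median of 0.97, with 42 called (70.0%). The 32 probes from 1.5 to below 2 had a median of 1.29, with 29 called (90.6%), and the 30 probes at 2 or more had one of 2.34, with 29 called (96.7%). The lowest *MINELESS* mean was -0.35 in the first of these classes and 0.84 in the last.

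The *MINELESS* mean was below the wild-type mean on 144 of the 178 probes (80.9%) and above it on 34. The median difference, *MINELESS* minus wild-type, was -0.31, and the middle part of the probes, between the quartiles, ran from -0.56 to -0.12. Since the wild-type values had to be high, a difference in this direction is favoured by the choice, and it was not tested. After each array had been scaled to a common spread, the median difference was -0.14.

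Both *MINELESS* values were below every wild-type value on 55 of the 178 probes (30.9%), and above every one on 2 (1.12%). Over the 3621 probes with both *MINELESS* values and at least 3 wild-type values, these shares were 9.67% and 9.06%. The rule used the wild-type side of this contrast, so the shares are given as they stand. The largest rise over wild-type was 0.82, on Narc8_20641, singled out after its values were seen. It had 1.61 and 2.03 in *MINELESS*, against 1.78, 0.83 and 0.39 on wild-type replicas 1 to 3, so the genotypes overlapped.

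The *MINELESS* arrays ranked the probes in a like order. Replicas 1 and 4 correlated at 0.79 (Pearson) and 0.74 (Spearman) over the 178 probes, and at 0.54 (Pearson) and 0.47 (Spearman) over the 1767 other probes with the same pattern. Over 144 probes that were induced in wild-type by the same rule and had values on at least 3 *MINELESS* arrays, replicas 1 and 4 included, the correlations were 0.84 (Pearson) and 0.76 (Spearman), slightly above those of the 178. The median absolute difference between the replicas was 0.32, and 10 probes differed by over 1. Replica 4 gave the higher value on 114 of the 178 probes (64.0%), by a median of 0.17, against 63.9% of these 144 induced probes, by a median of 0.18, and 52.7% of the 1767 other probes, by a median of 0.03. Replica 4 also carried the opposite dye, and replica 1 had the narrower ratios. The spreads used to scale the arrays were median absolute deviations of 0.31 on replica 1 and 0.39 on replica 4. The scaling factors were 1.26 and 1.01, so scaling raised the values of replica 1 more. Multiplied by these factors, the replica 1 median of 0.86 came out slightly above the replica 4 median of 1.02, so the order of the medians depended on scaling. On how many probes replica 4 stayed the higher after scaling was not counted. The part of the dye in this difference was not tested. The mean over both arrays, on which the counts rest, holds each dye once.

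The widest gap between the *MINELESS* arrays was on Narc8_07940, singled out after its values were seen. It had 1.53 and 3.30 on *MINELESS* replicas 1 and 4, against 2.91, 2.62, 2.35 and 3.52 in wild-type. One *MINELESS* array was below all wild-type arrays and the other within their range. Of the 10 probes with a gap over 1, replica 4 was the higher on 8, and Narc8_15237 and Narc8_18733 were the exceptions. Narc8_15237 had 1.88 and 0.80 in *MINELESS*, against 2.28, 1.72 and 1.01 on wild-type replicas 1 to 3, and Narc8_18733 had 2.28 and 1.17 in *MINELESS*, against 2.35, 2.12, 1.59 and 2.47 in wild-type.

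Of the wild-type arrays, replica 1 resembled the *MINELESS* arrays most over these probes. Its r was 0.79 for *MINELESS* replica 1 (n = 177 probes) and 0.77 for *MINELESS* replica 4. Wild-type replica 3 resembled the *MINELESS* arrays least, with 0.61 and 0.71 (n = 171). For *MINELESS* replica 4 the lead of wild-type replica 1 was slight, 0.7655 against 0.7634 for wild-type replica 4 (n = 135). Over the induced probes with values on at least 3 *MINELESS* arrays, wild-type replica 1 was also the highest, with 0.78 (n = 148) and 0.79 (n = 149). These correlations are across probes and describe the arrays only.

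Probes that passed the same wild-type part of the rule but had values on at least 3 *MINELESS* arrays served for comparison. On *MINELESS* replicas 1 and 4, the 178 probes had a median mean of 1.00, against 0.93 for the 144 comparison probes with values on both. The median difference from wild-type was -0.31 in the 178 and -0.32 in the 144, and the *MINELESS* mean was below the wild-type mean on 80.9% and 83.3%. Both *MINELESS* values were below every wild-type value on 30.9% and 33.3%. In these summaries the sets were close, and no test was made since probes are not replicates. Split by wild-type mean, the median differences from wild-type were less alike. Under 1 it was -0.30 in the 178 and -0.18 in the 144, and from 1 to below 1.5 it was -0.27 and -0.32. From 1.5 to below 2 it was -0.31 and -0.50, and at 2 or more it was -0.43 and -0.64.

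Of the 153 comparison probes, 114 (74.5%) were called as higher in *MINELESS* seedlings, against 116 of the 178 (65.2%). The 153 had more arrays behind each estimate. The gap lay mostly at small responses: with a wild-type mean under 1, 28.6% of the 178 probes were called and 48.0% of the comparison probes, while at 2 or more the shares were 96.7% and 97.1%. The medians by class are of the mean over replicas 1 and 4, so they cover only the 144 comparison probes with values on both. At 2 or more the median *MINELESS* mean was 2.34 in the 178 and 1.82 in these comparison probes, and under 1 it was 0.50 and 0.62. From 1 to below 1.5 it was 0.97 and 0.78, and from 1.5 to below 2 it was 1.29 and 1.33, so neither set was the higher throughout.

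What replicas 2 and 3 would have shown for the 178 probes is not known. On the 102 comparison probes with values on all 4 *MINELESS* arrays, the median was 1.09 for the mean of replicas 1 and 4 and 0.97 for the mean of replicas 2 and 3. The number of values on an array was 4669 and 4690 on *MINELESS* replicas 1 and 4, and 1781 and 1662 on replicas 2 and 3. Why a cell was left without a value is not stated in the labels or methods.

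Wild-type replica 4 was also less complete, with 4551 values, where wild-type replicas 1 to 3 held 6726 to 7119. It held a value for 75.8% of the 178 probes, 98.0% of the 153 comparison probes and 67.0% of the 182 induced probes with no *MINELESS* value. The share was 78.8% over the 3621 probes with both *MINELESS* values and at least 3 wild-type values. It was 64.0% over the 1767 other probes with the same pattern. The median wild-type mean was 1.24, 1.27 and 1.09 in the 178, the 153 and the 182 probes.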

How the data were processed

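The deposited log2 ratios were made by the authors, who took logs, applied print tip-loess within arrays, subtracted no background, averaged replicate spots and removed genes with a strong dye bias (limma in R 2.10.1, per the labels). All 8 columns were used as deposited; scanner files were not used here. Probes and lists were chosen with earlier results of these data known.

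The limma package (3.58.1, R 4.3.3) was run over all 3749 probes with at least 3 wild-type and 2 *MINELESS* values, with genotype coefficients and a dye term per probe, and variances were moderated by empirical Bayes with 7.27 prior degrees of freedom. Only the *MINELESS* coefficient was tested, with Benjamini-Hochberg adjustment over all these probes. The fit was tested on simulated data. Other summaries were computed in Python 3.11.15. The number of arrays limits the precision.

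Named were the 10 highest called and the 5 lowest probes in *MINELESS* and the 5 highest in wild-type. Those with both *MINELESS* values below 0 and those next to the threshold were named too, and 19 of the 178 met this rule. Narc8_11029, Narc8_20641, Narc8_07940, Narc8_17845, Narc8_15237 and Narc8_18733 lay outside this rule and were singled out after their values were seen. Planned lists of jasmonic acid, tryptophan, glucosinolate, defence, photosynthesis and cell type marker genes could not be used, since probes could not be tied to genes. Alternatives were no dye term, *MINELESS* arrays alone, other sets of probes tested, centring, scaling, array weights, robust moderation, other thresholds, each array left out and a replicate block.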

Additional observations from a re-analysis of the deposited data

Results flagged for a closer look

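On 4 probes the genotypes lay on opposite sides of 0, with both *MINELESS* values below 0 and all wild-type values above 0. Both *MINELESS* values were below 0 on 2.25% of the 178 probes, against 29.7% of the 3621 probes with both *MINELESS* values and at least 3 wild-type values. This was the case for 0 of the 144 comparison probes with values on both. The *MINELESS* means of the 4 probes were -0.35 (Narc8_24200), -0.20 (Narc8_34318), -0.17 (Narc8_23833) and -0.17 (Narc8_27952). Their wild-type means were 0.74, 0.88, 0.95 and 0.85. The rule fixed the wild-type side, and the difference was not tested. On Narc8_27952, wild-type replica 4 had a log2 ratio of 2.39, far from the 0.25 to 0.49 of the other wild-type arrays. It was the only 1 of 17 named probes with 4 wild-type values on which an array stood apart in this way, where chance gives about 1 in 20.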

How the results depend on the processing

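The 116 probes called as higher in *MINELESS* stayed within 1.5 times under every alternative that kept both *MINELESS* replicas 1 and 4, from 84 at an adjusted *P* of 0.01 to 145 with the *MINELESS* arrays alone. Leaving out single arrays gave 36 to 136, the lowest without *MINELESS* replica 4. None was called as lower under any alternative run with limma. With the replicate block the count was 117, and no call of a named probe changed. Arrays with the same number deviated from their genotype means with correlations of 0.24, 0.04, -0.11 and 0.03, so the numbers were not taken to pair the arrays.

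The median *MINELESS* ratio of 1.00 was 1.13 after scaling, 0.75 with the rule at a wild-type mean of 0.5 (236 probes), 1.24 with the rule at 1 (122 probes), and 0.86 to 1.02 with 1 *MINELESS* array left out. The median difference of -0.31 was -0.14 after scaling and -0.42 to -0.23 with 1 array left out. With 1 *MINELESS* array left out, the estimate ran from -0.456 to 0.0595 on Narc8_34318, -0.435 to 0.0892 on Narc8_23833, -0.555 to 0.217 on Narc8_27952 and -0.103 to 0.094 on Narc8_00232. The values above 0 were those without replica 4, where the estimate is the value of replica 1 shifted by the dye term. Replica 1 itself was at -0.27 on Narc8_34318, -0.11 on Narc8_23833 and -0.25 on Narc8_27952. On these probes the sign above 0 thus came from the dye term, while on Narc8_00232 replica 1 was at 0.16. The source of the dye shift was not tested. Signal over background is not given here.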

Other observations

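When the 1945 probes with values on *MINELESS* replicas 1 and 4 only and at least 3 wild-type values were chosen by *MINELESS* instead (mean of 0.7 or higher, both values above 0), 135 passed, and 124 of these were among the 178. The other 11 had a median *MINELESS* mean of 0.86 and a median wild-type mean of 0.34, with wild-type means between -0.04 and 0.65. Conversely, 54 of the 178 did not reach this limit in *MINELESS*, and their median *MINELESS* mean was 0.45. The choices rest on 2 and on 3 or 4 arrays, and the difference in numbers was not tested.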
